A study of Mus musculus with 8 samples.

Results

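Collagens, laminins, elastic fibre proteins, proteoglycans and the enzymes that shape them make up the extracellular matrix, here followed through 50 genes in whole mouse pancreas. The genes were taken by name from a list of matrix components, processing enzymes and both platelet-derived growth factor (PDGF) receptors, and all 50 are among the 11789 genes of the deposited table. Expression was measured by strand-specific sequencing of total RNA, 1 library per mouse, in 4 wild-type mice and in 4 mice labelled Daxxfl/flPdx1-CreTg. The labels' short names, WT and DC, are used below. All were 6 weeks old, and the design gives 2 females and 2 males per genotype without saying which library is which. Floxed Daxx alleles and the Pdx1-Cre transgene occur together in the DC mice, so the effects of Daxx loss, the floxed alleles and the transgene cannot be told apart. Pdx1-Cre acts in the progenitors of acinar, ductal and islet cells, while fibroblasts and stellate, vascular and mesothelial cells, the usual makers of most of these transcripts, arise outside that lineage. Daxx, a histone H3.3 chaperone, was at 47.6 ± 8.02 normalized counts in WT and 28.0 ± 3.88 in DC pancreas (SD, n = 4 each). Recovered reads over the listed genes were 7705789 to 10517508 per library.

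The matrix of the exocrine pancreas has an interstitial part between lobules and around ducts and vessels, built on fibrils of types I, III and V collagen with beaded filaments of type VI. It also has a basement membrane under every acinus, duct, islet and capillary, in which networks of type IV collagen and laminin are joined by nidogens and perlecan. Quiescent stellate cells and fibroblasts maintain the matrix, and stellate cells make far more of it in pancreatitis and around tumours. Whole tissue mixes all cell types, so fewer cells of a type and less RNA per cell cannot be told apart in any value below.

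Type IV collagen genes lie head to head, so a short stretch of DNA serves as the upstream region of both neighbours. In GENCODE M21 (GRCm38), Col4a1 (chromosome 8, 11198423 to 11312826, minus strand) and Col4a2 (chromosome 8, 11312805 to 11449287, plus strand) share 22 bases at their first exons. Col4a4 (chromosome 1, 82448423 to 82586849, minus strand) and Col4a3 (chromosome 1, 82586921 to 82722059, plus strand) have 71 bases between their starts. That stretch is shown with the bases before Col3a1, which had the highest level per length of the 50 genes, and with those before Hspg2 (perlecan), which hold 5 copies of the GC box GGGCGG in 216 bases. Each is from RefSeq's promoter table (GRCm38.p6), written 5′ to 3′ on the strand named, and overlaps no GENCODE exon. Capitals mark TATAAA, 117 bases before the start, in the Col3a1 stretch and GGGCGG in the Hspg2 stretch, each searched on both strands.
Between Col4a4 and Col4a3, chr1:82586850-82586920, minus strand: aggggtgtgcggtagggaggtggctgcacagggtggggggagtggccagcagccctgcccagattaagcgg
Before Col3a1, chr1:45311288-45311537, plus strand: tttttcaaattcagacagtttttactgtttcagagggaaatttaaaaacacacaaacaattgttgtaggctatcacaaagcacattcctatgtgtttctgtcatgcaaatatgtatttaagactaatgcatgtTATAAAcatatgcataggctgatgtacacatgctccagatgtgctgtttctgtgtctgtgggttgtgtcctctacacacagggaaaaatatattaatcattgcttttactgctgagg
Before Hspg2, chr4:137468553-137468768, plus strand: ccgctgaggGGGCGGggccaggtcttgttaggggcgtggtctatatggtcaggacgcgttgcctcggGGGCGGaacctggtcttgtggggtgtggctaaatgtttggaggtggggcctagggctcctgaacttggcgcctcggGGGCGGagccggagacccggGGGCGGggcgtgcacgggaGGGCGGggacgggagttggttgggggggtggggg
The Col3a1 stretch is 35.2% G and C and the Hspg2 stretch 70.8%, against a median of 52.4% and 52.8% over all windows of the same length. Of the 32 genes with a window in that table, 20 hold GGGCGG within the 250 bases before a start, where 32.7% of all 32851 windows do. CCAAT lies in the windows of 11 of the 32, against 33.8% of all windows, and TATAAA in those of Col3a1 and Postn, against 12.4%. None of these motifs contains another, genes with more than 1 window count if any holds the motif, and a match is a description of the sequence only.

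No matrix gene was called between the genotypes. Of the 50 genes, 49 had a mean of at least 10 normalized counts and were tested by limma on log2(normalized count + 1), adjusted by Benjamini-Hochberg over all 10468 tested genes. None passed an adjusted p of 0.05, and limma called 0% of all tested genes, with 2.88% of them at an unadjusted p under 0.05, 1.32% higher and 1.57% lower in DC. None of the 49 was at that level. The smallest unadjusted p among them was 0.0579 and every adjusted p was 0.9997 after rounding. edgeR's quasi-likelihood test and DESeq2 on the recovered reads also called 0 of the 49, against 0% and 0.00955% of all tested genes. Both tools had 0 of the 49 at an unadjusted p under 0.05, against 2.86% and 2.09% of all tested genes. In none of the 49 did the 4 WT values lie wholly above or below the 4 DC values, which occurred in 1.87% of tested genes. Limma did not call Daxx either (unadjusted p = 0.00238, adjusted p = 0.9997), though all its DC values lay below all its WT values. The absence of a call is therefore not evidence that a gene is unchanged.

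The largest absolute log2 fold change was 0.45 and the median 0.10, against a median of 0.12 over all tested genes. The 95% interval reached a median of 0.38 log2 units to each side, or 1.304-fold, close to the 0.41 of all tested genes. For 34 of the 49 the whole interval lay within a 1.5-fold change in either direction, and for 45 within a 2-fold change. In this fit limma draws each gene's variance towards that of all genes of similar level. The within-genotype SD of log2 values had a median of 0.32 for the 49 genes and 0.27 for all tested genes. These intervals and counts can therefore be tighter than a gene's own spread would give. The intervals that went beyond 2-fold were those of Col4a4, Lum, Lox and Loxl2, all genes of low counts. Fold changes were above 0 for 26 genes and below 0 for 23, with a median of 0.01 against -0.01 over all tested genes, of which 48.1% were above 0. Scaling each library to the same total shifted the median of all genes to 0.11 and put 39 of the 49 above 0. With that median most of all tested genes are above 0, and their exact share is not given here. The counts of role groups under equal library totals below carry the same shift. Relative to the median of all genes, 27 were above in both scalings.

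**Figure D1:**
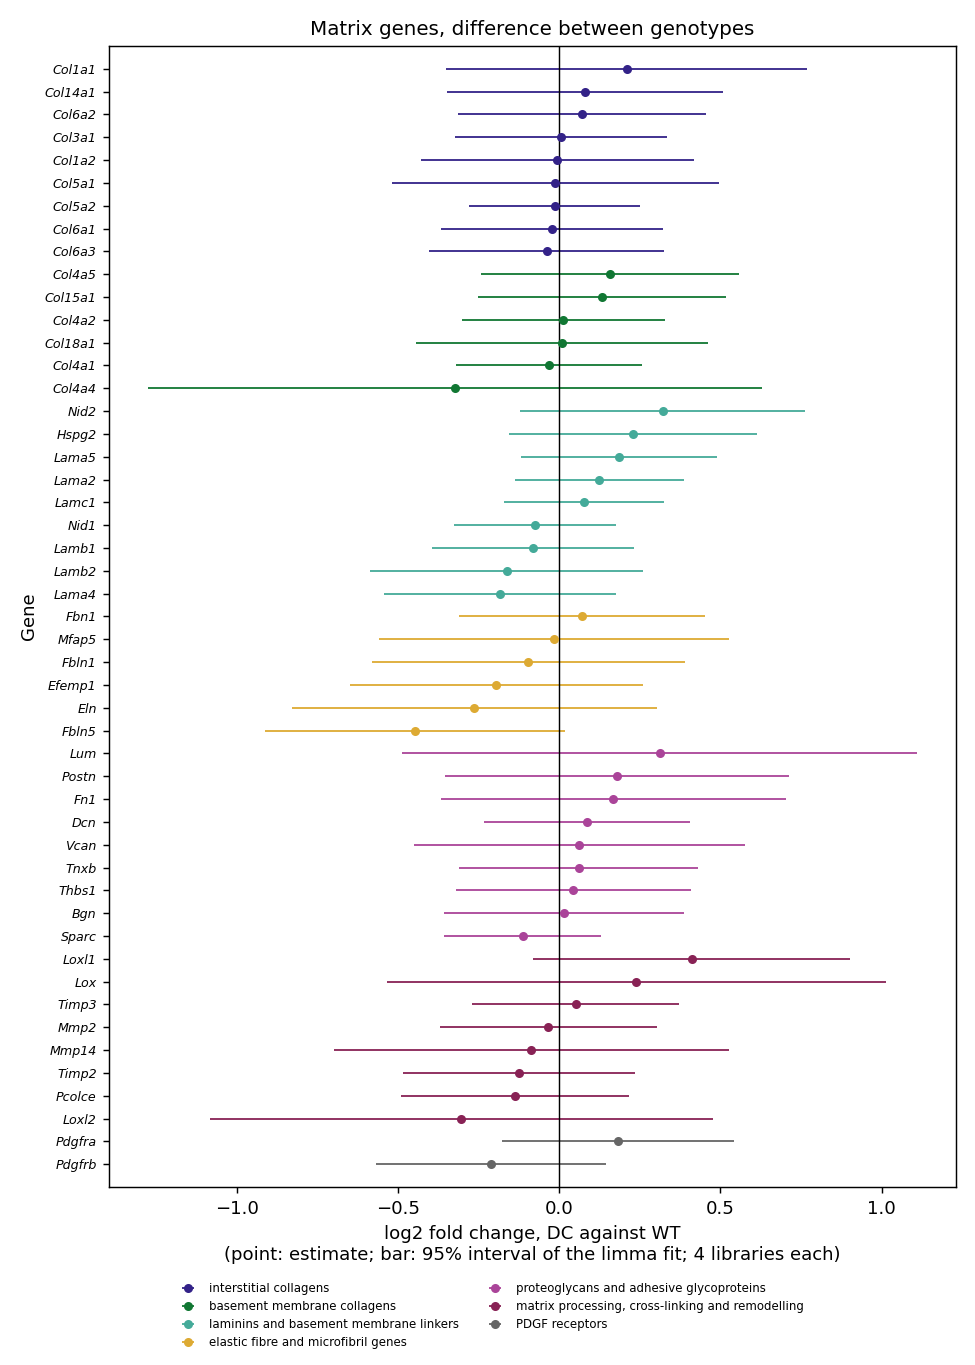
Log2 fold change between genotypes of the 49 tested matrix genes (points) with 95% intervals of the limma fit (bars), grouped by role, 4 libraries per genotype. Every interval crosses 0, and the point estimates run from -0.45 for Fbln5 to 0.41 for Loxl1.

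Levels of different genes were compared per length, first per kilobase of annotated exons. Col3a1, the chain of type III collagen, had the highest level, 238 ± 41.6 normalized counts per kilobase (SD, n = 8). Col4a1, of basement membranes, had 143 ± 20.96 and Sparc, a collagen-binding glycoprotein made by stromal and endothelial cells, 128 ± 12.6. Col1a1, the main chain of type I collagen, followed at 99.2 ± 36.8. The ranges over libraries overlapped, with 115 to 174 for Col4a1, 109 to 151 for Sparc and 50.9 to 173 for Col1a1. At the other end, Col4a3 had 0.967 ± 0.492 and Col4a4 1.47 ± 0.655 per kilobase, chains that are typical of kidney glomeruli. Vcan (versican, 2.57 ± 0.560) and the cross-linking enzyme Lox (3.001 ± 1.05) were also low. Exon unions include retained introns, and lengths of the longest transcript changed the order. On that scale Col3a1 stayed first at 420.3 per kilobase, followed by Sparc at 212, Col4a1 at 161, Col1a2 at 134 (57.5 with exon unions) and Col1a1 at 109.7.

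**Figure D2:**
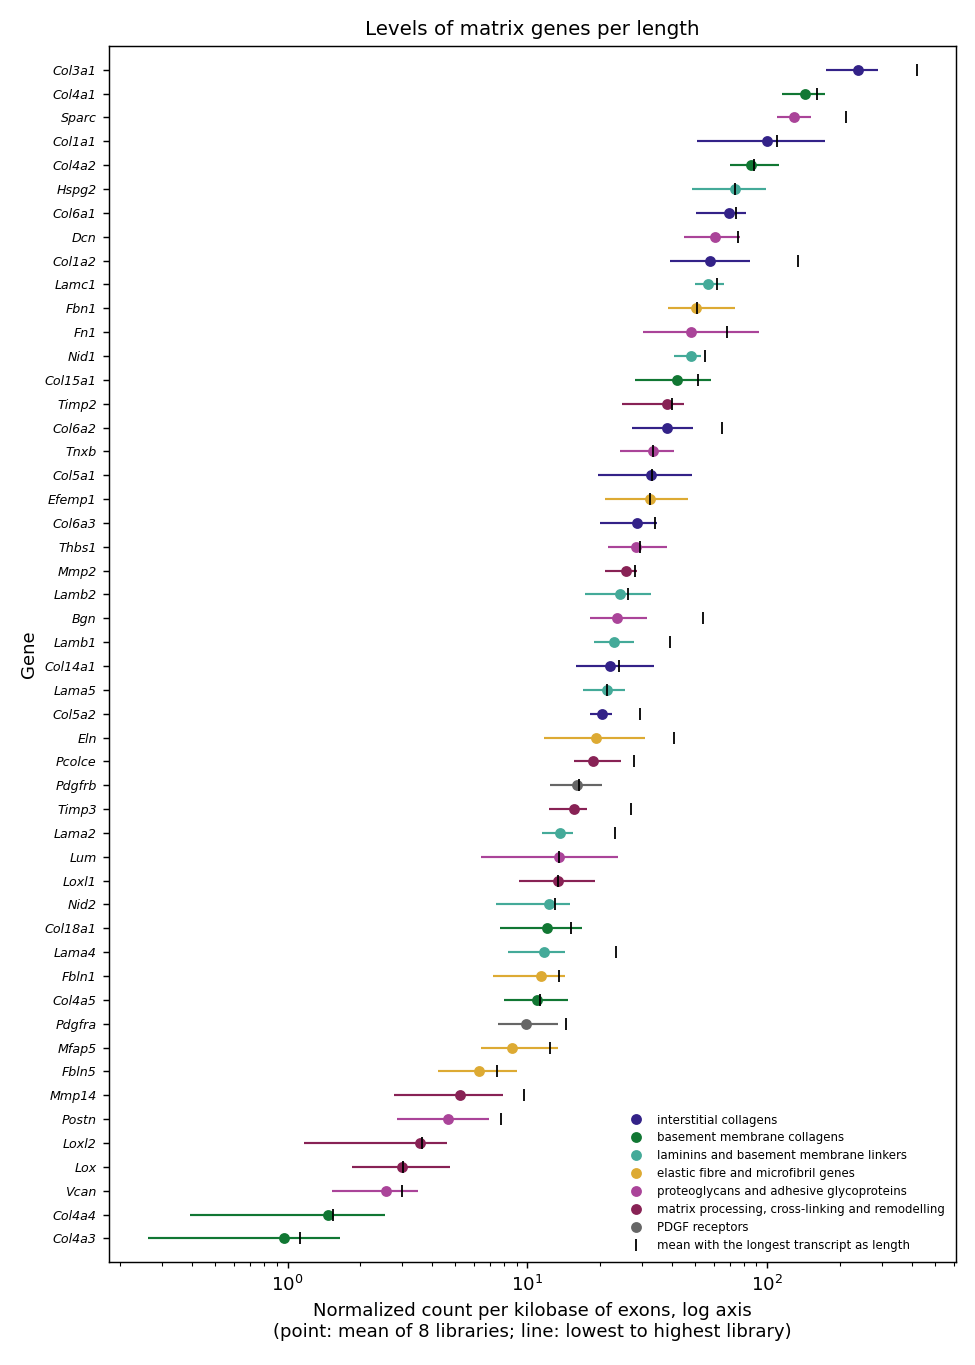
Normalized counts per kilobase of exons (log axis) for the 50 matrix genes, with the mean of 8 libraries (points), the lowest to highest library (lines) and the mean with the longest transcript as length (ticks). Levels run from 0.967 for Col4a3 to 238 for Col3a1.

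For the 9 interstitial collagen genes the log2 fold changes centred on -0.01 (median), and 4 were above 0. Under equal library totals all 9 were above 0 with a median of 0.12, near the 0.11 of all genes. Col3a1 stood at 2399, 2388, 2836 and 1726 normalized counts in WT replicates 1 to 4 and at 1803, 2553, 2779 and 2224 in DC replicates 1 to 4. Its means, 2337 ± 457 and 2339.7 ± 424, were almost the same, and the 95% interval of its log2 fold change was -0.32 to 0.33. Col1a1 stood at 608, 826, 637 and 334 in WT and at 469, 627, 1135 and 571 in DC libraries. DC replicate 3 was the highest and WT replicate 4 the lowest, a 3.40-fold range that spans both genotypes. Col1a2, the partner chain of type I collagen, stood at 749.9, 777, 827 and 487 in WT and at 521, 696, 1051 and 606 in DC libraries. Its highest and lowest libraries were the same as for Col1a1.

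Type V collagen sets the width of fibrils and type VI forms filaments near cells. Col5a1 was at 283 ± 102 normalized counts in WT and 275 ± 75.8 in DC pancreas. Col5a2 was at 196 ± 17.0 and 194 ± 16.5, with the narrowest range of the 50 genes, 1.23-fold from the lowest to the highest library. The type VI filament is built from the chains of Col6a1, Col6a2 and Col6a3. Col6a1 stood at 304, 343, 351 and 221 in WT and at 241, 324, 356 and 275 in DC libraries. Col6a2 stood at 263, 407, 349.6 and 228 in WT and at 265, 342, 405 and 282 in DC libraries. Col6a3 stood at 343, 415, 396 and 239.9 in WT and at 343, 376, 367 and 257 in DC libraries. WT replicate 4 was the lowest for each of these 3 chains. Col14a1, a collagen that binds to the surface of fibrils, was at 148 ± 24.1 and 161 ± 53.9 and was highest in DC replicate 2, at 236.

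Chains that assemble into 1 protein were compared with each other within each animal. Type I collagen contains Col1a1 and Col1a2 chains in a ratio that favours Col1a1, and type IV of most tissues likewise favours Col4a1 over Col4a2. Per kilobase of exons the Col4a1 to Col4a2 ratio was 1.71 ± 0.135 in WT and 1.66 ± 0.126 in DC pancreas (SD, n = 4 each), and lay between 1.54 and 1.88 in all 8 libraries. The coefficient of variation of this ratio was 7.37%, below the 14.7% and 17.0% of the genes themselves. The ratio also varied less than either gene for Col1a1 to Col1a2 (15.3%), Col6a1 to Col6a2 (9.89%) and Col6a3 to Col6a2 (13.9%). It did not for Col4a3 to Col4a4 (46.1%, against 44.5% for Col4a4), Lamb1 to Lamc1 (14.0%) or Lamb2 to Lamc1 (23.3%), where Lamc1 alone varied by 9.87%. Division of a pair of genes of the same library also removes what they share, by scaling or otherwise. Pairs of matrix genes that do not assemble were not compared. Whether the smaller variation is particular to chains of the same protein was therefore not tested. The Col1a1 to Col1a2 ratio was 1.58 ± 0.307 in WT and 1.81 ± 0.161 in DC pancreas. Its size depended on the length used, with a mean over 8 libraries of 1.69 for exon unions and 0.806 for the longest transcripts. The Col6a1 to Col6a2 ratio was 1.89 ± 0.243 and 1.76 ± 0.0798, and the Col6a3 to Col6a2 ratio 0.784 ± 0.0873 and 0.732 ± 0.128. In each of these pairs the genotypes overlapped.

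**Figure D3:**
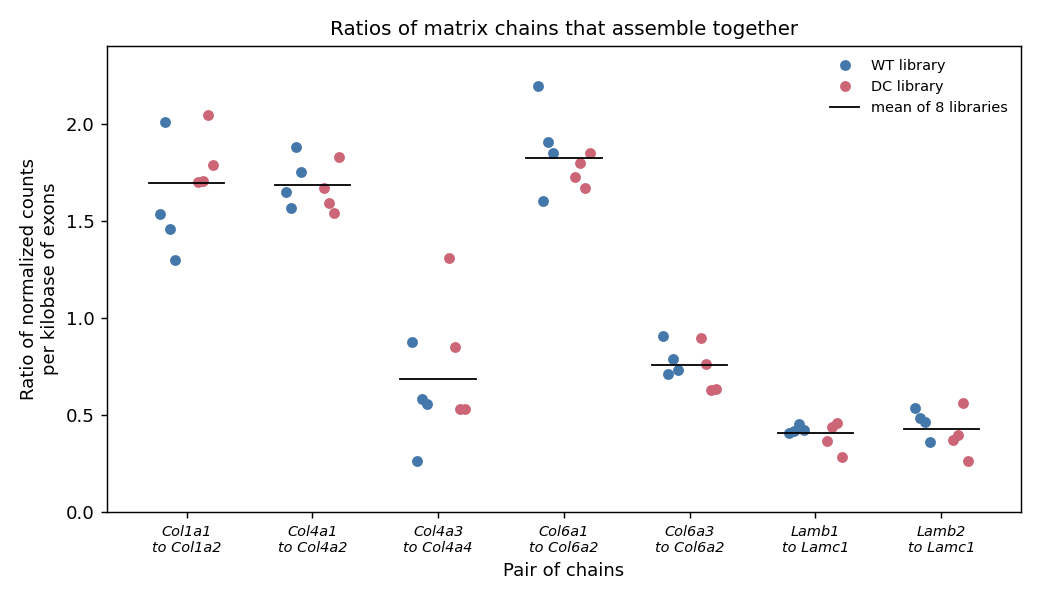
Ratio of normalized counts per kilobase of exons for 7 pairs of matrix chains (vertical axis) in each WT and DC library (points), with the mean of 8 libraries (lines). The Col4a1 to Col4a2 ratio stays between 1.54 and 1.88, and the Col4a3 to Col4a4 ratio, which rests on few reads, scatters from 0.266 to 1.31.

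Of the 7 basement membrane collagen genes 6 were tested, with 4 above 0, or 5 under equal library totals, and a median of 0.01 in log2 fold change. Col4a1 stood at 861, 1300.3, 1244 and 939 normalized counts in WT and at 1001, 957, 1169.5 and 1067 in DC libraries. Col4a2 stood at 464, 737, 587 and 476 in WT and at 533, 533, 674 and 518 in DC libraries. Both were highest in WT replicate 2 and lowest in WT replicate 1, and the DC values lay between these. Col4a5, an X-linked chain, was at 69.3 ± 12.5 in WT and 77.7 ± 16.1 in DC pancreas. Col15a1 and Col18a1, whose proteins carry the precursors of restin and endostatin, were at 257 ± 80.8 and 274 ± 33.3, and at 85.8 ± 27.1 and 83.7 ± 12.3. Col18a1 shares 8825 bases of its span with Slc19a1 on the other strand.

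Col4a3 and Col4a4, the pair around the 71 bases shown above, had few reads. Col4a3 stood at 12.3, 2.61, 11.7 and 9.74 normalized counts in WT and at 16.5, 3.33, 13.5 and 7.35 in DC libraries, from 2 to 16 reads each. Its mean over all libraries was below 10, so it was not tested over all genes, and the exact permutation test of its log2 values gave p = 0.771 (two-sided, 70 relabellings). Col4a4 stood at 14.98, 10.4, 21.4 and 18.6 in WT and at 13.4, 4.17, 27.1 and 14.7 in DC libraries, from 5 to 26 reads. WT replicate 2 and DC replicate 2 were the 2 lowest libraries for each of both genes, so low values occurred in both genotypes.

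Laminins are trimers of an alpha, a beta and a gamma chain, and the 9 genes of laminins and their linkers had 5 log2 fold changes above 0, or 7 under equal library totals, and a median of 0.08. Lamc1, the gamma chain shared by most laminins, stood at 418, 489, 506 and 412 normalized counts in WT and at 437, 462, 479 and 547 in DC libraries. The beta chain Lamb1 stood at 205, 247, 275 and 208 in WT and at 193, 242, 265 and 187 in DC libraries. Lamb2, the other beta chain, stood at 165, 175, 172 and 109 in WT and at 119.7, 136, 199 and 106 in DC libraries. The genotypes overlapped for all 3. Per kilobase Lamb1 was at 0.426 ± 0.0183 of Lamc1 in WT and 0.388 ± 0.0789 in DC pancreas, and Lamb2 at 0.461 ± 0.0744 and 0.400 ± 0.124. DC replicate 4 had the lowest value of both ratios, 0.285 and 0.264. Over 8 libraries these ratios had means of 0.407 for Lamb1 and 0.431 for Lamb2. With the longest transcripts as lengths the means were 0.643 and 0.429, so the order of Lamb1 and Lamb2 depends on the length used.

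Among the alpha chains, Lama5 is typical of epithelial and mature vascular basement membranes, Lama4 of vessels and Lama2 of muscle and nerve. Lama5 stood at 205, 266, 252 and 195 normalized counts in WT and at 249, 216, 291 and 289 in DC libraries. Lama4 stood at 152, 164, 151 and 129 in WT and at 148, 172, 116 and 99.7 in DC libraries. Lama2 stood at 214, 188, 218 and 235 in WT and at 207, 248, 253 and 224 in DC libraries. All overlapped between genotypes, with log2 fold changes of 0.19 ± 0.14, -0.18 ± 0.17 and 0.12 ± 0.12 (SE) in this order and exact permutation p of 0.257, 0.400 and 0.229. Per kilobase of exons Lama5 made up 45.7% ± 5.10 of the 3 alpha chains (SD, n = 8), Lama2 29.2% ± 3.10 and Lama4 25.1% ± 4.48. With the longest transcripts as lengths these shares were 31.6%, 34.1% and 34.3%, so their order depends on the length used.

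Nidogens and perlecan tie the laminin and collagen networks together. Hspg2 (perlecan) stood at 804, 1358, 1030.3 and 695 normalized counts in WT and at 1113, 937, 1414 and 1002 in DC libraries. Its log2 fold change was 0.23 ± 0.18 (SE), with an exact permutation p of 0.400. Nid2 stood at 48.5, 67.8, 76.0 and 38.1 in WT and at 65.0, 65.8, 78.1 and 70.3 in DC libraries. The DC values lay close together, above the 2 lower WT libraries and around the 2 higher, and the log2 fold change was 0.32 ± 0.21 (exact permutation p = 0.314). Nid1 was at 343 ± 26.0 and 326 ± 35.3. Nid2 shares 437 bases of its span with Rtraf on the other strand.

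Of the 6 elastic fibre and microfibril genes 1 had a log2 fold change above 0, or 3 under equal library totals, and the median was -0.15. Fbln5, which organises elastin into fibres, had the smallest unadjusted p of all 49 tested matrix genes. It stood at 44.9, 62.6, 57.5 and 37.2 normalized counts in WT and at 32.0, 39.2, 45.8 and 29.4 in DC libraries. WT replicates 2 and 3 exceeded all DC libraries, and WT replicates 1 and 4 lay inside the DC range. Its means were 50.5 ± 11.6 and 36.6 ± 7.41, the log2 fold change -0.45 ± 0.22 (SE), with a 95% interval of -0.91 to 0.02 and an exact permutation p of 0.143. Eln, elastin itself, was at 173 ± 67.8 and 141 ± 47.2. Fbn1, the fibrillin of microfibrils and the group's highest gene per kilobase, stood at 510.2, 704, 677 and 471 in WT and at 582, 888, 468 and 577 in DC libraries. DC libraries held both its highest and its lowest value. Fbln1 was at 51.0 ± 10.1 and 48.4 ± 13.3, Efemp1 at 68.9 ± 6.45 and 62.5 ± 22.5, and the microfibril gene Mfap5 at 30.8 ± 5.32 and 31.3 ± 11.5.

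Among the 9 proteoglycans and adhesive glycoproteins 8 had a log2 fold change above 0, or 9 under equal library totals, with a median of 0.06. Sparc, the 1 below 0, stood at 492, 468, 574 and 489 normalized counts in WT and at 444, 507, 506 and 414 in DC libraries. Its log2 fold change was -0.11 ± 0.11 (SE), and the genotypes overlapped. Fn1, fibronectin, had 617 ± 316 in DC against 511 ± 100.1 in WT pancreas. Its DC mean rests on replicate 2, at 1074, while the other 3 DC libraries stood at 488, 551 and 354. The small leucine-rich proteoglycans bind collagen fibrils. Of these, Dcn (decorin) was at 342 ± 54.3 and 363 ± 63.9, Bgn (biglycan) at 143 ± 26.8 and 145 ± 32.6, and Lum (lumican) at 28.9 ± 14.0 and 37.4 ± 18.8. Tnxb, a tenascin of loose connective tissue, was at 399 ± 93.4 and 413 ± 78.2, and Thbs1, a thrombospondin that activates latent TGF-beta, at 169 ± 27.6 and 177 ± 42.3. Postn, a matricellular protein of fibrosis, was at 37.3 ± 6.10 and 43.9 ± 14.5, and Vcan at 37.0 ± 11.7 and 37.3 ± 4.08.

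Of the 8 genes of processing, cross-linking and remodelling 3 had a log2 fold change above 0, or 5 under equal library totals, and the median was -0.06. Loxl1, a lysyl oxidase of elastic fibres, stood at 37.9, 41.7, 36.0 and 32.8 normalized counts in WT and at 49.5, 63.3, 62.5 and 30.4 in DC libraries. In 3 DC libraries it lay above all WT values, and in replicate 4 below them. Its log2 fold change was 0.41 ± 0.23 (SE), with an interval of -0.08 to 0.90 and an exact permutation p of 0.171. Without DC replicate 4 it was 0.64, with an unadjusted limma p of 0.00606 and an adjusted p of 0.9998. That library alone makes the genotypes overlap, so this smaller p follows in part from leaving it out and is no further evidence. Lox was at 13.1 ± 4.85 and 15.6 ± 5.59, and Loxl2 at 20.3 ± 1.22 and 18.2 ± 8.54, with 6 reads in DC replicate 4.

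Metalloproteases cut collagens and TIMP proteins inhibit them, and no gene of either kind was called. Timp2, an inhibitor of metalloproteases that also helps to activate Mmp2, stood at 149.8, 159, 159 and 146 normalized counts in WT and at 142, 176, 161 and 96.6 in DC libraries. Timp3, an inhibitor that binds to the matrix, stood at 121, 115, 143 and 119.5 in WT and at 138, 137, 99.98 and 144 in DC libraries. Timp2 shares 10141 bases of its span with Cep295nl on the same strand and Timp3 shares 49135 with Syn3 on the other. These spans include introns, and whether the overlaps affect the assignment of reads was not tested. The gelatinase Mmp2 was at 87.4 ± 11.3 and 85.3 ± 10.4, the membrane-bound collagenase Mmp14 at 32.0 ± 10.3 and 30.5 ± 9.68, and Pcolce, which speeds the trimming of procollagen, at 75.6 ± 13.5 and 68.1 ± 5.70.

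Pdgfra marks fibroblasts and Pdgfrb marks stellate cells and pericytes, and their estimates lay on opposite sides of 0. Pdgfra stood at 87.2, 75.6, 97.4 and 111 normalized counts in WT and at 90.8, 135, 102 and 94.5 in DC libraries. Pdgfrb stood at 99.6, 112, 92.5 and 76.1 in WT and at 75.4, 68.3, 95.8 and 88.2 in DC libraries. The log2 fold changes were 0.18 ± 0.17 and -0.21 ± 0.17 (SE), with exact permutation p of 0.371 and 0.200, and both genes overlapped between genotypes.

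**Figure D4:**
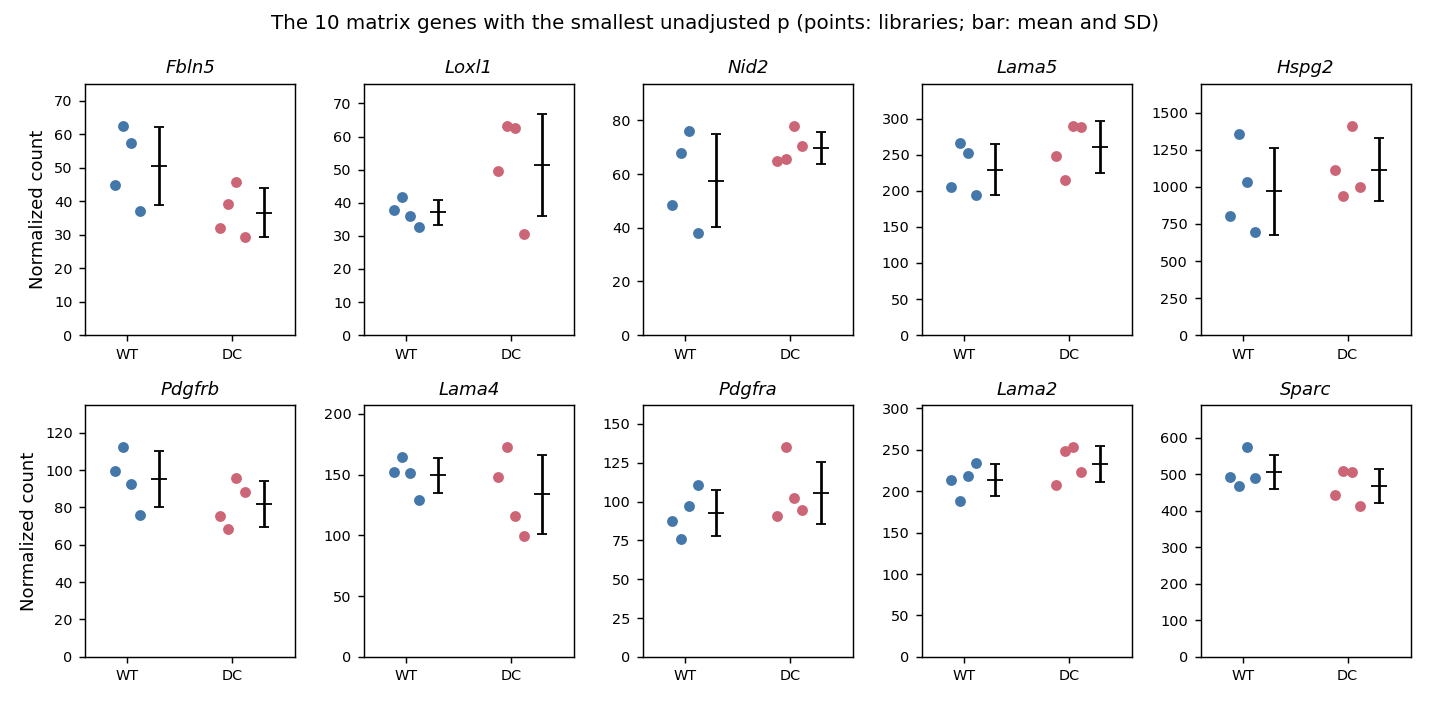
Normalized counts of the 10 matrix genes with the smallest unadjusted p, per library (points) with mean and SD (bars), for 4 WT and 4 DC libraries. The genotypes overlap in each panel, in Loxl1 only through DC replicate 4, at 30.4.

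Matrix gene values also varied between animals of the same genotype. The 50 genes together took 0.146%, 0.158%, 0.165% and 0.120% of the normalized counts in WT replicates 1 to 4 and 0.160%, 0.198%, 0.184% and 0.124% in DC replicates 1 to 4. The total behind these shares was 75.2% from its 20 most abundant genes in DC replicate 2, where it was lowest (7827886), and 80.3% in WT replicate 2 (10050253). As sums, the 50 genes had 13504, 15918, 15507 and 11105 normalized counts in WT and 12760.1, 15506, 16575 and 12699 in DC libraries. WT replicate 2 thus had a lower share but a higher sum than DC replicate 2. Replicate 4 was the lowest of its genotype by both measures, and these numbers pair nothing between the groups. The within-genotype SD of log2 values had a median of 0.32 for the 49 tested genes and 0.27 for all tested genes. The range from the lowest to the highest library had a median of 1.84-fold for these genes and 1.73-fold for all tested genes.

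WT replicate 4 was the lowest library for 18 of the 50 genes, where it was lowest for 12.4% of all tested genes. These 18 included 8 of the 9 interstitial collagen genes, all but Col14a1, whose lowest library was DC replicate 4. The median interstitial collagen gene in WT replicate 4 deviated by -0.45 log2 units from its own mean over 8 libraries. DC replicate 4 was the lowest for 15 genes, against 13.4% of all tested genes, among them Fbln1, Fbln5, Efemp1, Loxl1, Loxl2, Timp2 and Fn1. Its elastic fibre group had a median of -0.48 on the same scale.

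DC replicates 2 and 3 were each above the mean of 8 libraries for 37 of the 50 genes, all 9 interstitial collagens among them. WT replicates 2 and 3 were above it for 35 and 38 genes, with 8 of the 9 interstitial collagens in each. By role, DC replicate 2 was above the mean for 8 of 8 processing and remodelling genes and 2 of 7 basement membrane collagens, and DC replicate 3 for 3 of 8 and 7 of 7. DC replicate 2 was the highest for 14 genes, against 11.5% of all tested genes. These were Fbn1, Efemp1 and Mfap5 of microfibrils, Fn1, Dcn, Lum and Postn, the remodelling genes Loxl1, Loxl2, Mmp2 and Timp2, and Col14a1, Lama4 and Pdgfra. DC replicate 3 was the highest for 12 genes, against 12.9% of all tested genes. These were Col1a1, Col1a2 and Col6a1, the basement membrane genes Col4a4, Col4a5, Lama2, Lama5, Lamb2, Nid2 and Hspg2, and Bgn and Thbs1. In DC replicate 3 Fbn1, Mfap5, Lum, Postn and Timp3 were at their lowest of all 8 libraries, as were 15.4% of all tested genes. WT replicate 2 was the highest for 10 genes, against 15.5% of all tested genes. These included Col4a1, Col4a2, Col15a1 and Col18a1. These descriptions rest on 1 animal each and were not tested.

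**Figure D5:**
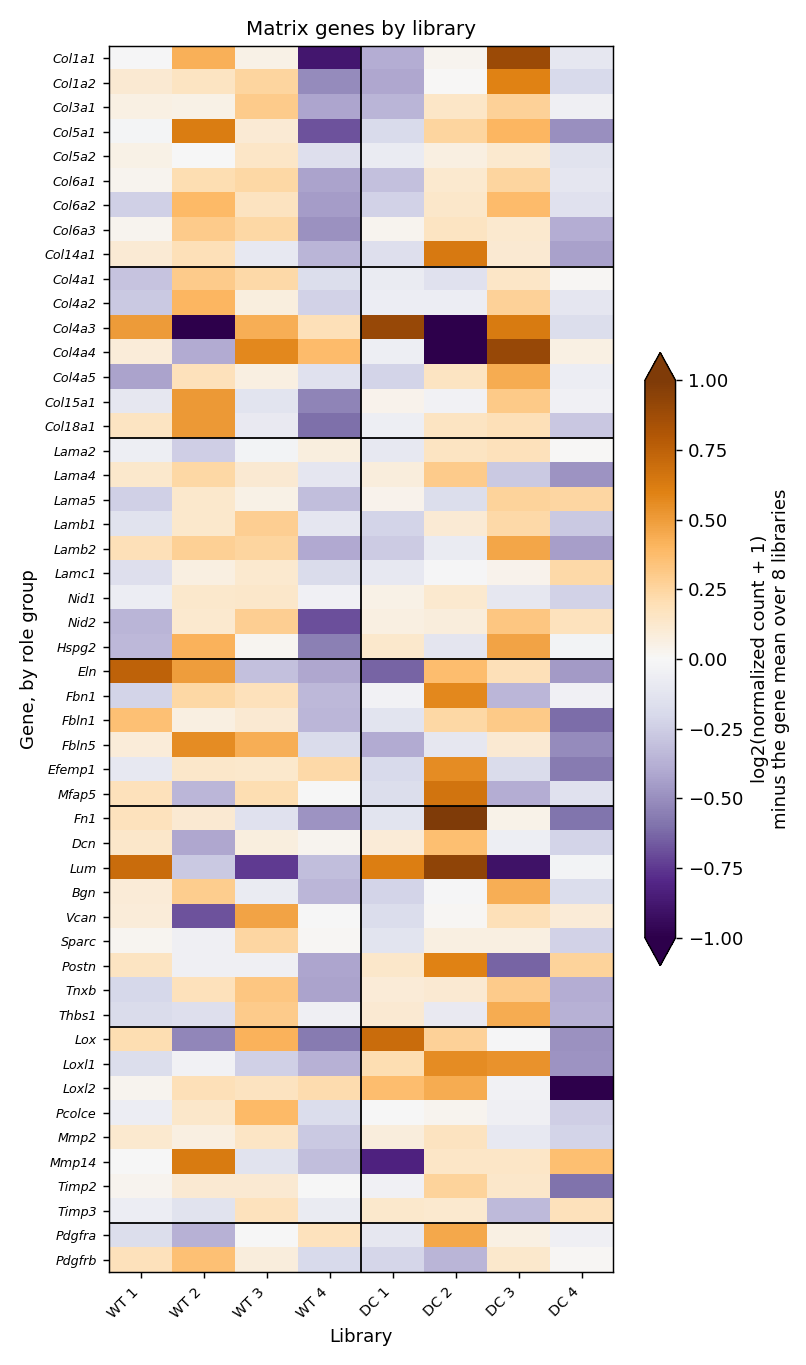
Deviation of log2(normalized count + 1) from each gene's mean over 8 libraries (colour, clipped at -1 and 1) for the 50 matrix genes (rows, by role group) in each library (columns). All 9 interstitial collagens are below their mean in replicate 4 of both genotypes and above it in DC replicates 2 and 3. In WT replicates 2 and 3, 8 of the 9 are above it in each, and in DC replicate 1, 1 is.

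Markers of other cells were also uneven between these libraries. Summed over 8 listed adipocyte markers, DC replicate 2 had 725 normalized counts, while the other DC libraries had 122 to 260.1 and the WT libraries 209 to 434. Adipoq and Cidec were each at 0 in 1 library. Summed over 10 macrophage markers, the same library had 818, against 354 to 539 in the other DC and 433 to 683 in WT libraries. Summed over the 11 fibroblast and stellate markers outside the 50 genes, WT libraries had 1815 to 2359 and DC libraries 1711 to 2272. The sums were lowest in replicate 4 of each genotype. Most of each sum was Gsn, at 1352 to 1775 in WT and 1280 to 1701 in DC libraries. Gsn was lowest in the same libraries, so the pattern of the sum largely restates that gene. Pericyte and smooth muscle markers (9 genes) ran from 370.1 to 451 and from 345 to 514, endothelial markers (11 genes) from 938 to 1203 and from 922 to 1153, and mesothelial markers (5 genes) from 73.5 to 147 and from 86.1 to 156. The 3 listed Schwann cell markers ran from 216 to 240.0 and from 203 to 239.5, and of 9 lymphocyte markers only Jchain was listed, at 0 to 19.6 and 2.10 to 69.97. Ductal markers (8 genes) ran from 1193 to 1399 and from 1169 to 1390.5, and islet markers (9 genes) from 2140.3 to 7750.2 and from 1683 to 7459. All 11 acinar markers were present, with sums of 3698785 to 4428039 in WT and 3028862 to 4448339 in DC libraries, lowest in DC replicate 2. None of these marker genes was called, and the part that cell makeup plays in the matrix values was not tested. Without DC replicate 2 limma still called 0 of the 49 matrix genes, and 1, Efemp1, had an unadjusted p under 0.05 (0.0417, adjusted p = 0.9997). With all libraries 2.88% of all tested genes were at that level.

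The wider matrix pathway, from lists of related genes outside the 50, also held no called gene. Of 124 tested genes in 8 lists none was called, and at an unadjusted p under 0.05 there were 3 higher and 2 lower, against 1.32% and 1.57% of all tested genes. Enzymes and chaperones of collagen folding and export (21 tested, 11 above 0) had a median log2 fold change of 0.00, and P4hb, a subunit of prolyl hydroxylase that also folds other secreted proteins, was at 16342 ± 751 and 16112 ± 859.9 normalized counts. P3h1, a prolyl hydroxylase of collagen, was at 19.7 ± 11.2 and 26.3 ± 4.18, and Bmp1, which trims procollagen, at 54.7 ± 5.27 and 64.2 ± 5.66. Other collagen chains (9 tested of 28, 7 above 0) had a median of 0.11. The largest counts among them were those of Col7a1, of anchoring fibrils, at 1414 ± 389 and 1284 ± 198, and the smallest p those of Col20a1 (23.6 ± 4.52 and 36.3 ± 15.1) and Col27a1 (18.3 ± 10.2 and 24.1 ± 7.65).

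Receptors and basement membrane genes held 3 of those 5. Of 26 tested integrins and other receptors 19 were above 0, with a median of 0.08. Itgb1, the beta chain of most collagen and laminin receptors, was at 433 ± 31.5 in WT and 355 ± 47.9 in DC pancreas, with an unadjusted limma p of 0.0280 and an adjusted p of 0.9997. Itga4, an integrin chain of leukocytes, was at 7.85 ± 6.15 and 21.5 ± 14.8. It stood at 13.4, 43.3, 11.5 and 17.8 in DC libraries, all above WT replicates 2 to 4. WT replicate 1, at 16.7, lay inside the DC range. DC replicate 2, the highest, was also the library with the highest macrophage marker sum (818) and Jchain value (69.97). The part of these cells in the Itga4 value was not tested. Itga6, a laminin receptor chain and the most abundant of the list, was at 1075 ± 59.3 and 1020.3 ± 105.9. Of 10 tested laminins and basement membrane genes outside the 50, 6 were above 0, with a median of 0.09. Ntn4, a netrin that binds laminin, was at 26.9 ± 6.96 and 38.9 ± 3.62, and Tinagl1 at 36.9 ± 6.44 and 47.8 ± 3.97. In both, the genotypes did not overlap, as in 1.87% of tested genes, and since they were named for the smallest p of their list this partly follows from the choice. Lamb3, the beta chain of an epithelial laminin, was at 377 ± 77.8 and 349.2 ± 35.3.

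Proteases, growth factors and other matrix proteins completed these lists. Of 14 tested proteases and inhibitors 10 were above 0, with a median of 0.12; Plau, the urokinase gene, was at 40.4 ± 15.2 and 23.4 ± 8.18, Adamts1 at 33.9 ± 5.01 and 46.6 ± 11.4, and Adamts9 at 488 ± 72.5 and 420.1 ± 77.4. Of 22 other glycoproteins and proteoglycans 16 were above 0, with a median of 0.03, with Igfbp7 at 107 ± 15.6 and 143 ± 33.9, Smoc2 at 94.5 ± 22.3 and 75.02 ± 12.5, and vitronectin (Vtn) at 2309 ± 635 and 2051 ± 265. TGF-beta is the main inducer of collagen genes in stellate cells. Of 18 tested genes of its pathway 7 were above 0, with a median of -0.03. Smad7, its feedback inhibitor, was at 42.7 ± 10.4 and 54.9 ± 3.97, Smad3, which carries the signal, at 256 ± 51.4 and 205 ± 53.6, and Ltbp3, which stores latent TGF-beta in the matrix, at 447 ± 97.0 and 489 ± 94.6. Of the 4 PDGF ligand genes 2 were above 0, with a median of 0.02, and Pdgfa was at 104 ± 23.8 and 106 ± 19.4, Pdgfd at 26.7 ± 1.90 and 33.1 ± 5.25, and Pdgfc at 12.2 ± 3.29 and 9.05 ± 3.91.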

How the data were processed

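The deposited values are a signal: for each library the authors divided its read counts by 1 size factor, which the values themselves reveal. The submitters' processing notes name STAR 2.6.0b, DESeq2 and GRCm38. The read counter, with its strand setting, was not given in the sources used here. Dividing by the smallest value above 0 gave whole reads for 100% of values (tolerance 0.001), and no gene in the table had under 5 reads in more than 4 libraries. Genes with a mean of at least 10 normalized counts were fitted with limma 3.58.1 (R 4.3.3, trend option, genotype as only term) on log2(value + 1), which understates changes of low genes, and called under an adjusted p of 0.05. Single genes had an exact two-sided permutation test over 70 relabellings, whose smallest p is 0.0286. Alternatives were other pseudocounts, scalings, filters and weights, each library left out, and edgeR 4.0.16 and DESeq2 1.42.0 on recovered reads. The limma step was tested on simulated data. Lengths and positions are from GENCODE M21, matched without ID version for 11781 genes. Members and lists were chosen with earlier results of these data known. Values in all 8 libraries are given for the highest gene per kilobase of each role group, the 10 smallest p, the chains in ratios and genes with a library far from the rest, and means, in other lists, for the 2 smallest p and the most abundant gene. Libraries are taken as separate animals, since the design gives 4 mice per genotype.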

Additional observations from a re-analysis of the deposited data

Results flagged for a closer look

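By Dixon's test 1 library lay far from the other 3 of its genotype in 3 of 100 groups of matrix genes, where chance gives about 1 in 20, or 5. Col4a2 was at 674 normalized counts in DC replicate 3 and at 518 to 533 in the others. Lamb2 was at 109 in WT replicate 4 and at 165 to 175 in the others. Timp3 was at 99.98 in DC replicate 3 and at 137 to 144 in the others. Over these and the other named genes 8 of 204 groups were marked, against 10.2 by chance. P4hb was at 17397 in DC replicate 4 and at 15571 to 15747 in the others. Notch3, of pericytes, was at 102 in WT replicate 2 and at 50.5 to 57.5 in the others. Rgs5, also of pericytes, was at 90.3 in DC replicate 4 and at 104 to 105 in the others. Fabp4, of adipocytes, was at 124 in DC replicate 2 and at 57.3 to 58.8 in the others. Lyz2, of macrophages, was at 232 in WT replicate 1 and at 146 to 158 in the others.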

How the results depend on the processing

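No matrix gene was called under any of the 19 alternatives, and the smallest adjusted p among them was 0.964. Over all tested genes limma called 0, or 1 with equal library totals, 1 with robust moderation, and DESeq2 called 1; limma called 0 to 1 with 1 library left out. In the main fit 2.88% of all tested genes had an unadjusted limma p under 0.05, and the shares under the alternatives are not given here. By limma's unadjusted p under 0.05 there were 0 matrix genes, 1 with equal library totals (Lama5), and 0 to 2 with 1 library left out. These were Col15a1 and Hspg2 without WT replicate 2, Nid2 without WT replicate 3, Fbln5 without WT replicate 4 or DC replicate 3, Efemp1 without DC replicate 2 and Loxl1 without DC replicate 4. The median log2 fold change of the tested matrix genes ran from -0.07 to 0.07 with 1 library left out. That of the PDGF receptors was -0.01 and became 0.11 with equal library totals, which shift all genes by as much. The sign of the fold change was the same in every alternative for 18 of 49 genes. Lengths from the longest transcript gave mean ratios of 0.806 for Col1a1 to Col1a2 and 1.85 for Col4a1 to Col4a2. They gave 1.15 for Col6a1 to Col6a2, 0.529 for Col6a3 to Col6a2, 0.643 for Lamb1 to Lamc1 and 0.429 for Lamb2 to Lamc1. The labels give no replicate numbers, and those used here follow the order of the samples within each genotype. No paired analysis was made, since no label used here links a WT mouse to a DC mouse. Genes with few reads, such as Lox, Loxl2, Col4a3 and Col4a4, allow only wide intervals.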
